A study of Oryza sativa Japonica Group with 4 samples.

Results

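The calcium-regulated protein kinases of rice roots were followed on the 4 arrays of a short glutamate treatment. They were taken in 2 families, the calcium-dependent protein kinases (CPK, also written CDPK) and the CBL-interacting protein kinases (CIPK). A gene was included when its symbol or a synonym, after an optional Os prefix, read CPK, CDPK or CIPK plus a number. Of 54 such genes in the gene table, 24 were CPK/CDPK genes and 30 were CIPK genes. The array annotation gave 44 of them at least 1 probe set of their own, 20 CPK/CDPK and 24 CIPK, out of 17905 genes measured in this way. The other 10 (CPK11, CPK14, CPK25, CPK28, CIPK3, CIPK9, CIPK13, CIPK15, CIPK27 and CIPK33) were not analysed here. Only 5 of the 44 carried the family name as their symbol (CPK7, CPK13, CPK19, CPK23 and CPK24), and the other 39 were found by a synonym. Some synonyms are shared, so that CPK4, CPK7 and CPK23 all carry the older name CDPK1, and CPK19 also carries CPK2. Each gene is called here by its OsCPK or OsCIPK number.

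The +Glu group consisted of roots of rice cv. TNG67 (Oryza sativa ssp. japonica) fed glutamate at 2.5 mM during 30 min, and the −N group of roots moved to solution with no nitrogen for the same time. All seedlings were germinated for 3 days in the dark, then kept in hydroponics without ammonium nitrate, and were 17 days old at sampling. Both groups were therefore nitrogen-starved, and glutamate was the only difference that the labels give. Each group had 2 arrays, labelled as biological replicates. The labels do not say how many seedlings an array stands for. The values are the deposited intensities of the probe sets of the Affymetrix GeneChip Rice Genome Array on a linear scale. In whole roots, fewer cells of a type and less RNA per cell cannot be told apart.

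In plants, many stimuli set off brief increases in cytosolic calcium, and these kinases are among the proteins that read them. A CPK joins a kinase domain to a calmodulin-like domain with calcium-binding EF hands, so that 1 protein both senses calcium and phosphorylates its targets. A CIPK has no calcium-binding domain of its own and is switched on by a CBL protein, a small calcium sensor that also brings it to a membrane. Members of both families are known for their part in salt, drought, cold and pathogen responses, and some CIPKs act on potassium and nitrate transport in roots.

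The arrays were compared before the members were read. The median intensity over all probe sets was 19.3 and 23.9 on the +Glu arrays and 20.1 and 23.9 on the −N arrays. Values were lower on replicate 1 than on replicate 2 for 37 of the 44 members in +Glu and for 38 of the 44 in −N (84.1% and 86.4%, beside 79.6% and 76.4% of all genes). The 2 arrays of a group differed by a median of 1.16-fold in +Glu and 1.24-fold in −N over the members, against 1.18-fold and 1.30-fold over all genes. Of the root genes checked, Lsi1, a silicon transporter, read 7831 and 8863 in +Glu against 7085 and 9275 in −N, and HAK5, a potassium transporter, read 6116 to 7267 on the 4 arrays, while SCR1 was at 12.0 or below on every array. NAS1 alone of 7 root genes had groups that did not overlap, with 317 and 225 in +Glu against 30.3 and 101.1 in −N. Of 4 leaf genes, RBCS1 was at the bottom of the range (4.01 to 4.91), but CAB2R read 8748 to 10778. The 2 −N arrays were far apart for rbcS (310 and 1193) and rca (381 and 1276). The +Glu values lay between them, at 665 and 821 for rbcS and 928 and 875 for rca. The summed intensity of the 4 leaf genes was 12239 and 10807 in +Glu against 9444 and 13251 in −N, and that of 7 root genes 15645 and 17410 against 14203 and 18529. Both +Glu sums lay between the −N sums in each list, and the part of leaf RNA in the values below was not tested.

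No member of either family passed an adjusted p under 0.05 in limma, which compared +Glu with −N over all 17905 genes. The same was true of the whole array, where 0% of genes passed and the smallest adjusted p was 0.505. The lowest adjusted p was 0.733 among the CPK/CDPK genes and 0.797 among the CIPK genes. The study selected genes by a 2-fold difference together with a p under 0.05. An unadjusted p under 0.05 alone, a wider criterion that is not the study's, is used below to describe the members, and the 2-fold criterion is given beside it. An unadjusted p under 0.05 was met by 682 genes higher in +Glu (3.81%) and by 67 lower ones (0.374%).

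Of the 20 CPK/CDPK genes, 16 had a positive log2 fold change (+Glu minus −N) and 4 a negative one. That share of 80% compares with 55.1% of all genes. The median was 0.21 in the family and 0.026 over all genes, and the range was −0.36 to 1.04. An unadjusted p under 0.05 was met by 3 CPK/CDPK genes, CPK4, CPK21 and CPK5 (15%, against the 3.81% of all genes), each higher in +Glu, and by 0 lower ones. That count was 1 without +Glu replicate 1 (5%, beside 2.08% of all genes) and 1 without +Glu replicate 2 (5%, beside 1.1%). It was 2 without −N replicate 1 (10%, beside 4.44%) and 5 without −N replicate 2 (25%, beside 12.1%), so that it moved with the count over all genes. Both +Glu arrays lay above both −N arrays for 8 of the 20 (40%, against 14.9% of all genes) and below them for 1 (5%, against 10.1%). The arrays overlapped for the other 11. The family median depended on the arrays used. It was −0.0064 without −N replicate 1, where that of all genes was −0.13, and 0.063 without +Glu replicate 2, where that of all genes was −0.071. With −N replicate 2 left out it was 0.39, beside 0.20 for all genes, and with +Glu replicate 1 left out 0.34, beside 0.14. The median of the family was above that of all genes in each of these 4 fits, which share arrays.

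**Figure D1:**
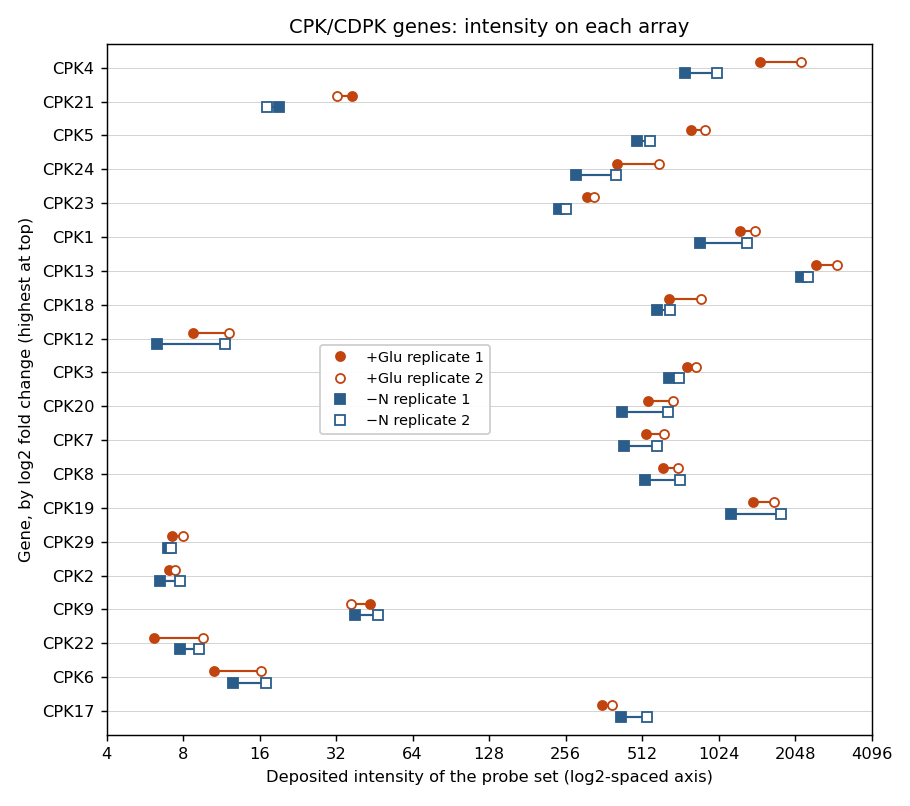
Deposited intensity (log2-spaced axis) of the probe set of each of the 20 CPK/CDPK genes on the 2 +Glu arrays (orange circles) and the 2 −N arrays (blue squares), with filled symbols for replicate 1 and open symbols for replicate 2. Genes run from the highest log2 fold change (CPK4, 1.04) to the lowest (CPK17, −0.36), and for 8 of them both orange circles lie to the right of both blue squares.

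CPK4 (LOC4328155), a kinase that has been tied to salt and drought tolerance and to blast resistance in rice, had the highest log2 fold change of either family. It read 1485 and 2150 in +Glu against 753 and 1004.5 in −N. The groups did not overlap. CPK4 alone of the members was past 2-fold with an unadjusted p under 0.05 (limma), as were 1.68% of all genes in this direction. Its fold was 2.05 (95% interval 1.24 to 3.42), with a log2 fold change of 1.04 ± 0.29 (SE, n = 2 arrays per group), an unadjusted p of 0.0143 and an adjusted p of 0.839 (limma). Without −N replicate 2 its log2 fold change was 1.25, in a fit where the median over all genes was 0.20. Without +Glu replicate 2 its log2 fold change was 0.77 and its unadjusted p 0.120. It was also among the 3 brightest CPK/CDPK probe sets, but intensities of different probe sets do not rank transcripts, since probes differ in how well they bind.

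CPK21 (LOC4346187), known for a role in the salt response of rice, had a much dimmer probe set. It read 36.8 and 32.2 in +Glu against 19.1 and 17.0 in −N, and the groups did not overlap. The fold was 1.91 (95% interval 1.30 to 2.80), at a log2 fold change of 0.93 ± 0.22 (SE) and the lowest unadjusted p of all members, 0.0071 (adjusted p 0.733, limma). The −N values were below 21.5, the intensity at the median of all probe sets, and the +Glu values were above it. Without +Glu replicate 1 the log2 fold change was 0.83 and the p was 0.0869.

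CPK5 (LOC4330351) read 795 and 904 in +Glu against 487 and 552 in −N, again without overlap. The log2 fold change was 0.71 ± 0.22 (SE), or 1.64-fold (95% interval 1.11 to 2.41), with an unadjusted p of 0.0215 and an adjusted p of 0.937 (limma). The unadjusted call was lost without +Glu replicate 1 (p 0.0974), without +Glu replicate 2 (p 0.186) and without −N replicate 1 (p 0.0609), although the log2 fold change stayed between 0.62 and 0.80. Its probe set is 1 of 13 among the members whose name marks possible binding to several transcripts. CPK4, CPK5 and CPK6 lie on chromosome 2, and their values were not alike. CPK6 read 10.6 and 16.2 in +Glu against 12.6 and 17.0 in −N, dim on all 4 arrays and overlapping.

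In a further 5 CPK/CDPK genes the +Glu arrays were both higher, though none met the unadjusted threshold. CPK24, which takes part in cold tolerance, read 408 and 596 in +Glu against 281 and 403 in −N, a log2 fold change of 0.55 (unadjusted p 0.130, limma). The highest −N array was just under the lowest +Glu array. CPK23, known as SPK, the kinase of developing rice seeds that acts on sucrose synthase, read 311 and 330 in +Glu against 241 and 257 in −N, a log2 fold change of 0.36 (p 0.141). CPK13, which raises cold and salt tolerance when overexpressed, read 2470 and 2988 in +Glu against 2156 and 2295 in −N, with a log2 fold change of 0.29. Its second, dimmer probe set read 507 and 559 in +Glu against 329 and 405 in −N, with a log2 fold change of 0.54, so that both probe sets were higher in +Glu without overlap. CPK3 read 770 and 832 in +Glu against 653 and 717 in −N. CPK29 was close to the floor of the array, at 7.201 and 7.97 in +Glu against 6.98 and 7.17 in −N.

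CPK17, which has been tied to the cold response, was the only CPK/CDPK gene with both +Glu arrays below both −N arrays. It read 354 and 390 in +Glu against 422 and 537 in −N. The log2 fold change was −0.36 ± 0.24 (SE) with an unadjusted p of 0.189 (limma), so the 95% interval of the fold, 0.52 to 1.18, took in no difference. The sign was the same with each array left out, between −0.53 and −0.18.

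The other 11 CPK/CDPK genes had overlapping arrays. CPK19, one of the 3 brightest, read 1392 and 1694 in +Glu and lay inside the −N range of 1142 and 1800. CPK1 read 1238 and 1422 in +Glu against 862 and 1322 in −N, a log2 fold change of 0.31 (p 0.319). CPK18, the kinase that phosphorylates MPK5 in rice, read 656 and 873 in +Glu against 586 and 661 in −N, so that the lower +Glu array was just under the higher −N array. CPK7, CPK8 and CPK20 read between 426 and 719 on every array, with log2 fold changes of 0.20, 0.11 and 0.20. In each of these the −N replicate 1 array was the lowest of the 4. CPK9, a kinase of the drought response, read 43.6 and 36.5 in +Glu against 38.0 and 46.7 in −N (log2 fold change −0.076). CPK12, which affects salt tolerance, had the largest gap between −N arrays in the family, with 8.77 and 12.1 in +Glu against 6.31 and 11.7 in −N. CPK2 and CPK22 stayed between 6.13 and 9.54, with log2 fold changes of 0.023 and −0.15. Dim values (at or below an intensity of 21.5 on average) were found for 5 of the 20, CPK2, CPK6, CPK12, CPK22 and CPK29, and 2 of the 4 negative log2 fold changes of the family (CPK6 and CPK22) came from these.

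Of the 24 CIPK genes, 13 had a positive log2 fold change (54.2%, against 55.1% of all genes), 10 a negative one and 1 (CIPK30) a value of 0. The median was 0.011 and the range −0.72 to 0.79. An unadjusted p under 0.05 was met by CIPK14 and CIPK16, both higher in +Glu (8.33%, against 3.81% of all genes), and by 0 lower genes. The 2-fold threshold together with that p was met by 0 of the 24 in either direction (1.68% and 0.0447% of all genes met both). Both +Glu arrays lay above both −N arrays for 4 genes (16.7%, against 14.9% of all genes) and below them for 5 (20.8%, against 10.1%), and the arrays of the other 15 overlapped. With −N replicate 1 left out the median was −0.21, beside −0.13 for all genes, and with −N replicate 2 left out 0.11, beside 0.20. Without +Glu replicate 1 the median was 0.10, beside 0.14 for all genes, and without +Glu replicate 2 it was −0.085, beside −0.071. The count of higher CIPK genes changed with the array left out, as did that over all genes. Whether the 2 families differ was not tested, since their members were chosen with earlier results of these arrays known.

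**Figure D2:**
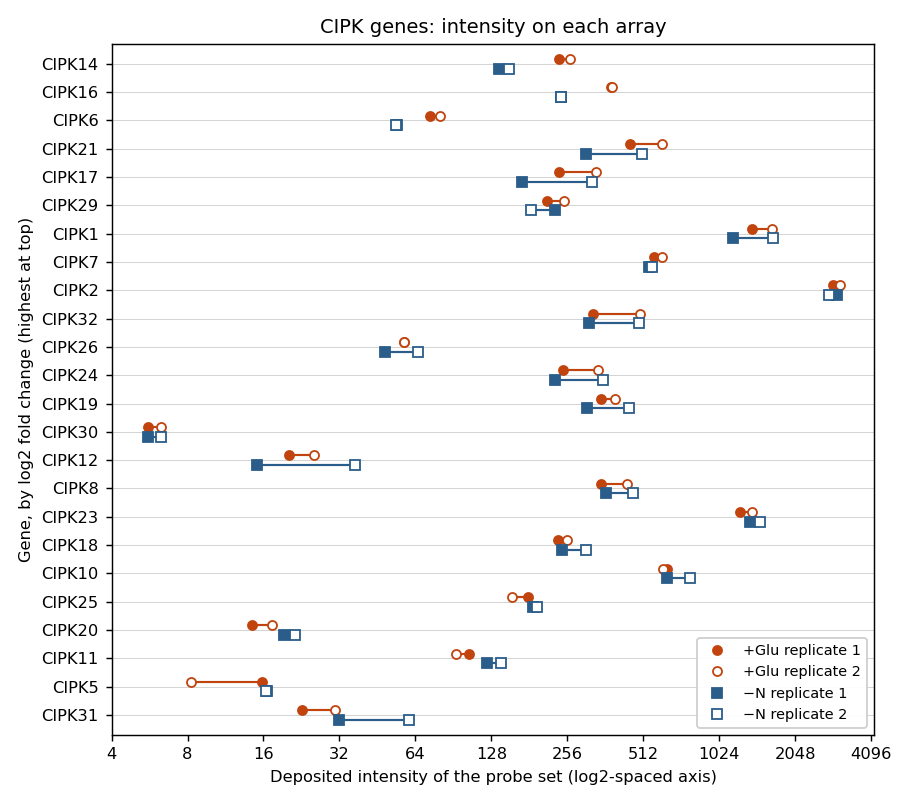
Deposited intensity (log2-spaced axis) of the probe set of each of the 24 CIPK genes on the 2 +Glu arrays (orange circles) and the 2 −N arrays (blue squares), with filled symbols for replicate 1 and open symbols for replicate 2. Genes run from the highest log2 fold change (CIPK14, 0.79) to the lowest (CIPK31, −0.72), with 4 genes whose +Glu arrays lie to the right of both −N arrays and 5 whose +Glu arrays lie to the left.

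CIPK14 (LOC4351307) is known in rice, with its near-identical copy CIPK15, from defence responses to microbial patterns. It read 237 and 261 in +Glu against 137 and 150 in −N, without overlap. Its fold was 1.73 (95% interval 1.19 to 2.52), at a log2 fold change of 0.79 ± 0.22 (SE), an unadjusted p of 0.0126 and an adjusted p of 0.797 (limma). Without +Glu replicate 1 the p was 0.0781, and without +Glu replicate 2 it was 0.129. The name of the CIPK14 probe set marks possible binding to several transcripts, without saying of which genes. CIPK15 was not analysed here, and its share in these values was not tested.

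CIPK16 (LOC4347071) had the closest replicates of the named members. It read 380.9 and 385.6 in +Glu against 241.7 and 240.9 in −N. The fold was 1.59 (95% interval 1.11 to 2.28), with a log2 fold change of 0.67 ± 0.21 (SE), an unadjusted p of 0.0210 and an adjusted p of 0.928 (limma). The log2 fold change stayed between 0.66 and 0.68 with each array left out, while the p went to 0.148 without +Glu replicate 1 and to 0.158 without +Glu replicate 2, where 1 array stood for the group. Its probe set may also bind several transcripts. Its neighbour in the gene table, CIPK27, was not analysed here.

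CIPK6 came next, with 73.1 and 80.4 in +Glu against 54.0 and 53.5 in −N. The groups did not overlap, and the log2 fold change of 0.51 ± 0.21 (SE) had an unadjusted p of 0.0561 (limma), just outside the threshold. CIPK21 read 455 and 607 in +Glu against 303 and 506 in −N, where the higher −N array overlapped the +Glu group (log2 fold change 0.43, p 0.251). CIPK7, known from chilling tolerance, completed the genes whose +Glu arrays were both higher, at 564 and 608 in +Glu against 539 and 553 in −N. That difference was small, with a log2 fold change of 0.10. The second probe set of CIPK7 overlapped, with 349 and 304 in +Glu against 296 and 345 in −N (log2 fold change 0.028).

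**Figure D3:**
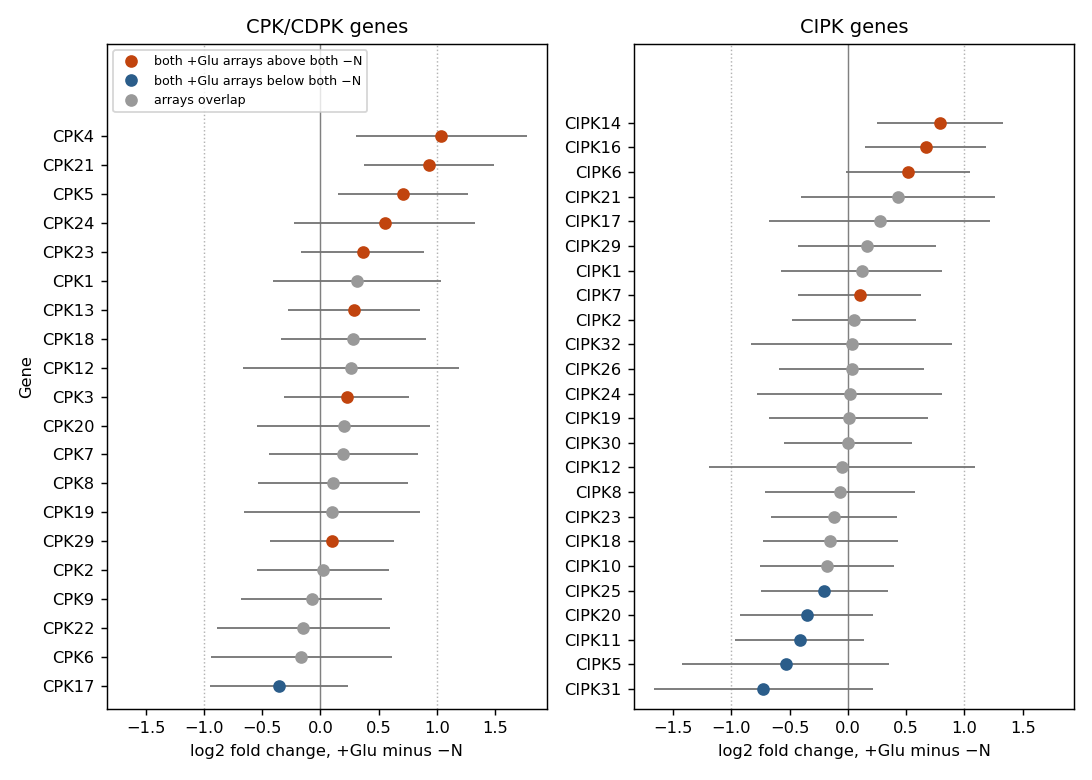
Log2 fold change (+Glu minus −N, points) with its 95% interval from limma (bars) for the 20 CPK/CDPK genes (left) and the 24 CIPK genes (right), coloured by whether both +Glu arrays lie above both −N arrays (orange), below them (blue) or overlap them (grey). Only CPK4, CPK21, CPK5, CIPK14 and CIPK16 have intervals that leave out 0, and dotted lines mark a 2-fold difference.

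The 5 CIPK genes with both +Glu arrays below both −N arrays were CIPK31, CIPK5, CIPK11, CIPK20 and CIPK25, and none of them met the unadjusted threshold. CIPK31, described as a stress-induced kinase, read 22.8 and 30.8 in +Glu against 31.8 and 60.3 in −N. The −N arrays were 1.89-fold apart, and the lower of them was close to the higher +Glu array. The log2 fold change was −0.72 ± 0.37 (SE), with an unadjusted p of 0.105 (limma). It was −1.19 without −N replicate 1 (adjusted p 0.0132) and −0.26 without −N replicate 2 (unadjusted p 0.424), so the value rested on which −N array was used. Its second probe set overlapped, with 10.3 and 18.5 in +Glu against 9.59 and 19.5 in −N (log2 fold change 0.012). Both probe sets of CIPK31 may bind several transcripts, and 1 of its synonyms is CIPK3.

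CIPK5 read 15.7 and 8.22 in +Glu against 16.5 and 16.4 in −N. The log2 fold change was −0.53 over all arrays and −0.066 without +Glu replicate 2. CIPK11 (LOC107275263) read 103.9 and 93.0 in +Glu against 122.6 and 139.7 in −N. Its log2 fold change of −0.41 ± 0.22 (SE; unadjusted p 0.116, limma) stayed between −0.51 and −0.32 with each array left out. CIPK20 was dim, at 14.5 and 17.4 in +Glu against 19.3 and 21.2 in −N (log2 fold change −0.36, p 0.172). CIPK25 had the smallest difference of the 5, with 178 and 155 in +Glu against 187 and 195 in −N.

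The remaining 15 CIPK genes had overlapping arrays, among them those with the best known roles in ion transport. CIPK23, which with CBL1 activates the potassium channel AKT1 in rice roots, read 1233 and 1373 in +Glu against 1352 and 1476 in −N. Its fold was 0.92 with a 95% interval of 0.63 to 1.34. Its second probe set read 332 and 462 in +Glu and lay inside the −N values of 296 and 514. CIPK24, the rice counterpart of the sodium tolerance kinase SOS2, read 246 and 337 in +Glu, between the −N values of 229 and 354 (log2 fold change 0.015). CIPK2, the brightest CIPK probe set, read 2895 and 3070 in +Glu against 2999 and 2771 in −N. Its log2 fold change was 0.049, with a 95% interval of the fold of 0.72 to 1.496. That probe set may bind several transcripts, and the other probe sets of CIPK2 had log2 fold changes of 0.032 and −0.23. CIPK1 read 1384 and 1651 in +Glu, also between the −N values of 1155 and 1675.

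CIPK12, which takes part in drought tolerance, had the most unequal −N arrays of all 44 members and was the only one with a gap of at least 2-fold. It read 20.3 and 25.4 in +Glu against 15.1 and 36.7 in −N, a 2.44-fold gap. The log2 fold change was −0.052 over all arrays, −0.69 without −N replicate 1 and 0.59 without −N replicate 2, so that its direction turned on the choice of −N array. The same was seen on a smaller scale for CIPK17, with 237 and 331 in +Glu against 169 and 319 in −N, and log2 fold changes of −0.19 to 0.73. CIPK30 had exactly the same 2 values in each group, 5.59 on replicate 1 and 6.27 on replicate 2, both near the lowest intensities on the array. CIPK10 had 4 probe sets with log2 fold changes of −0.27, −0.18, −0.023 and 0.18, and its representative read 636 and 612 in +Glu against 634 and 786 in −N. The other 6 with overlapping arrays (CIPK8, CIPK18, CIPK19, CIPK26, CIPK29 and CIPK32) had log2 fold changes between −0.15 and 0.16.

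Some members stand side by side in the gene table. CIPK30 and CIPK12 have no gene between them, nor have CIPK29 and CIPK2. CIPK29 read 213 and 248 in +Glu against 228 and 184 in −N, a log2 fold change of 0.16, beside the 0.049 of CIPK2. Neither pair had a member whose groups were apart.

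**Figure D4:**
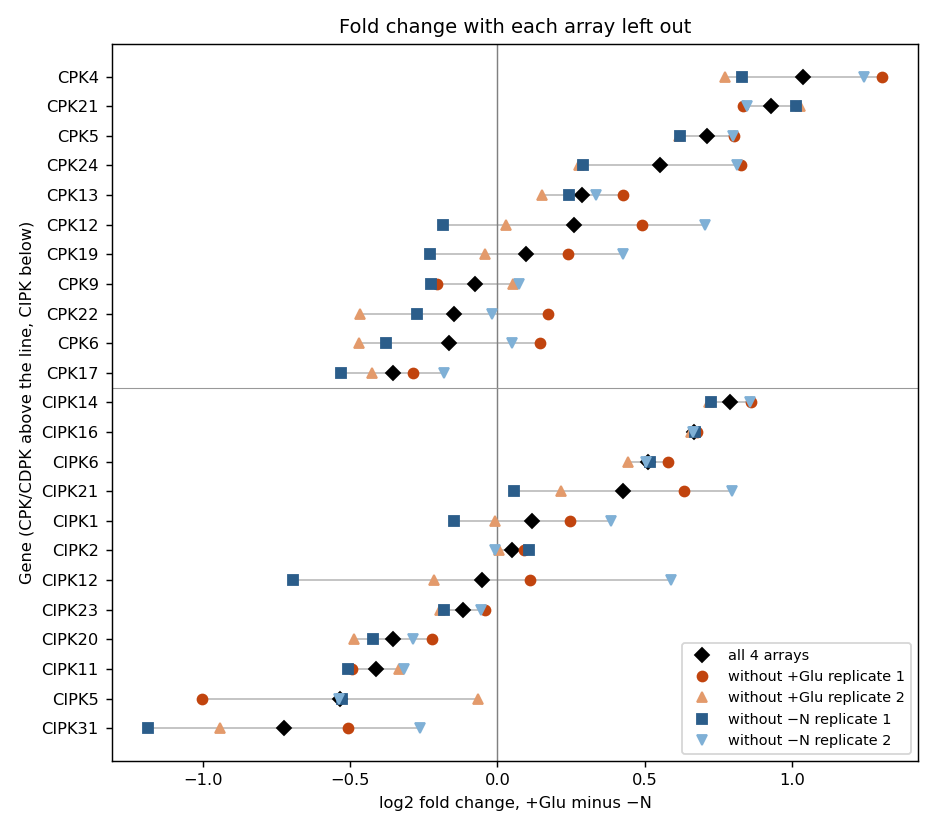
Log2 fold change (+Glu minus −N) of the 11 CPK/CDPK genes and 12 CIPK genes chosen by the naming rule, over all 4 arrays (black diamonds) and with each array left out (coloured symbols). CPK4, CPK21, CPK5, CIPK14 and CIPK16 stay to the right of 0, while CIPK12 spans −0.69 to 0.59.

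How far 1 array decided the direction was read over all members. The sign of the log2 fold change was compared over the 4 fits with an array left out, which share arrays. It was the same in all 4 for 11 of the 20 CPK/CDPK genes and 13 of the 24 CIPK genes. The share over all genes was not computed, so it is not known whether these counts are usual for these arrays. The 8 dim members (5 CPK/CDPK and 3 CIPK, with CIPK5, CIPK20 and CIPK30) had log2 fold changes of −0.53 to 0.26, and none of them met the unadjusted threshold. That cut is on the mean of the 4 arrays, so CPK21, below 21.5 in −N, was not counted as dim because of its +Glu values. A minimum mean log2 of 5 removes CPK21. Higher CPK/CDPK genes past the unadjusted threshold then numbered 2 of 14, beside 636 of 14038 genes.

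The CBL proteins, the calcium sensors that bind and activate CIPKs, were measured for 7 genes. All 7 log2 fold changes were negative, between −0.63 and −0.028, with a median of −0.19, against 0.026 over all genes, of which 55.1% were positive. In each of the 7, replicate 1 read below replicate 2 in both groups. This list was not read with each array left out, so how far 1 array decided the shared sign was not tested. None of the 7 met an unadjusted p under 0.05 (lowest p 0.111, limma), and both +Glu arrays lay below both −N arrays for 3 (42.9%, against 10.1% of all genes). CBL9 read 45.5 and 58.4 in +Glu against 61.1 and 103.7 in −N. CBL4, the counterpart of the sodium tolerance sensor SOS3, read 67.1 and 76.9 in +Glu against 79.1 and 96.1 in −N. CBL3 read 757 and 859 in +Glu against 872 and 922 in −N. In these 3 genes the groups were apart, but for CBL3 the log2 fold change was only −0.15. CBL6 was bright and overlapped by a small margin, with 1013 and 1229 in +Glu against 1221 and 1361 in −N.

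**Figure D5:**
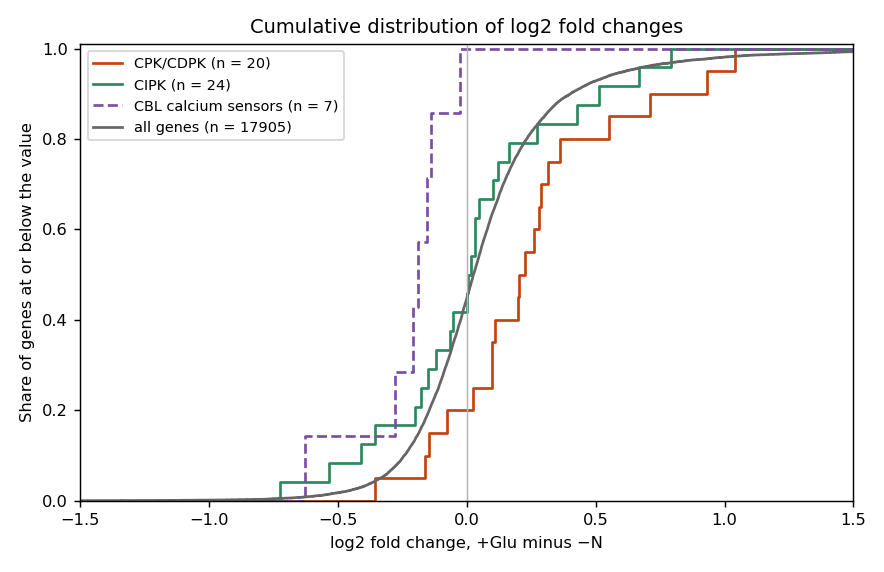
Cumulative share of genes (vertical axis) at or below a given log2 fold change (+Glu minus −N, horizontal axis) for the 20 CPK/CDPK genes, the 24 CIPK genes, the 7 CBL genes and all 17905 genes. The medians are 0.21, 0.011, −0.19 and 0.026.

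The calmodulins and calmodulin-like proteins (CaM and CML), which sense calcium but carry no kinase domain, had 26 measured genes that went both ways. An unadjusted p under 0.05 was met by 7 higher genes (26.9%, against 3.81% of all genes) and by 2 lower ones (against 0.374% of all genes). Of the 26 log2 fold changes, 13 were positive (50%, against 55.1% of all genes) and 13 negative. CML15 read 604 and 725 in +Glu against 288 and 135 in −N, a log2 fold change of 1.75 (adjusted p 0.723, limma). CML31 read 2327 and 2806 in +Glu against 1619 and 646 in −N (log2 fold change 1.32), and CML24 124 and 149 against 72.9 and 71.5 (0.91). On the other side CML10 read 1413 and 1451 in +Glu against 2177 and 2363 in −N, with a log2 fold change of −0.66. The calmodulins CAM1, CAM2 and CAM3 had log2 fold changes of −0.15, −0.26 and −0.18.

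Potassium transport, on which some CIPKs act, was covered by 23 genes of the AKT and HAK families. Their median log2 fold change was 0.12, and an unadjusted p under 0.05 was met by 1 higher gene, HAK16 (4.35%, against 3.81% of all genes), and 0 lower ones. HAK16 read 172 and 265 in +Glu against 105 and 63.0 in −N (log2 fold change 1.39, unadjusted p 0.0098, limma). HAK17 read 338 and 388 in +Glu against 200.4 and 22.8 in −N, and its log2 fold change of 2.42 (p 0.0525) goes with an 8.80-fold gap between the −N arrays. HAK9 read 122 and 163 in +Glu against 72.2 and 109.7 in −N. AKT1, the channel that CIPK23 activates, read 268 and 267 in +Glu against 153 and 278 in −N, so that the −N arrays lay on both sides of the +Glu group. In the sodium list, matched by gene name, 1 gene had a probe set of its own, HKT1.5 (199 and 241 in +Glu against 89.1 and 321 in −N).

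Among the 15 mitogen-activated protein kinases (MAP kinases), 1 gene met the unadjusted threshold and was higher in +Glu (6.67%, against 3.81% of all genes). That gene, which carries the names MPK3 and MPK5 and acts in rice defence, read 1978 and 2371 in +Glu against 1074 and 1112 in −N, a log2 fold change of 0.99 (unadjusted p 0.0056, adjusted p 0.723, limma). MPK6 read 703 and 835 in +Glu against 522 and 623 in −N (log2 fold change 0.43). The family median was 0.081. The 10 SAPK genes, the SnRK2 kinases of the abscisic acid and osmotic stress response, had a median of 0.031 and 0 genes past the unadjusted threshold in either direction. SAPK2, with 1390 and 1700 in +Glu against 881 and 1388 in −N, had the highest log2 fold change of that list, 0.47. The related lists were matched by gene name and cover their families in part. For the NADPH oxidases and the glutamate receptors 1 gene each was matched and measured, rbohB with a log2 fold change of 0.33 and GLR3.1 with 0.12, and the arrays of both overlapped.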

How the data were processed

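RNA from roots of 2 +Glu and 2 −N samples was hybridized to 4 arrays. The authors deposited 1 linear intensity per probe set and array (3.15 to 21379). Per the submitters' processing notes GCOS and RMA were used, with no version or setting stated. The values are linear and their array medians differ, so which of these programs made them is not known. Of 57381 probe sets, 123 controls were left out. Each gene took the brightest (highest mean log2) of its probe sets among the 22436 assigned to 1 gene, while 95 probe sets with several genes and 34727 with none were not used. All 17905 genes were named through RefSeq's gene table (assembly ASM3414082v1). The deposited intensities were taken to the log2 scale without an offset and fitted with limma 3.58.1 under R 4.3.3 (lmFit, then eBayes, +Glu minus −N, two-sided, no block), with Benjamini-Hochberg adjustment over all genes. The script was tested on simulated data. Python 3.11.15 with matplotlib 3.10.9 and pandas 2.3.3 drew the figures.

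The members and lists were chosen with earlier results of these data known. Members past an unadjusted p of 0.05, the 4 highest and 4 lowest log2 fold changes, the 3 brightest and the largest −N gap of each family, and up to 3 genes of each related list were named by rule. Other genes were named after their values were seen. The study names a calcium-dependent protein kinase by locus number, which the tables used here do not pair with a gene, so it may be one of the members on chromosome 2. Arrays have no read depth, and their number limits the precision. Alternatives were each array left out, a block for the replicate number, median centring, quantile normalization, a minimum mean log2 (5, or the median of all probe sets), an offset of 16, Student's t-test, trend and robust eBayes, a fit over all probe sets, other probe set choices and membership by symbol only.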

Additional observations from a re-analysis of the deposited data

How the results depend on the processing

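With 2 arrays per group, the counts of members past an unadjusted p under 0.05 changed by a few genes under most alternatives. The replicate numbers were not shown to pair the samples, since there are only 2 pairs. The deviations of same-numbered arrays correlated with r = 0.43 over all genes, and with the replicate number as a block the unadjusted threshold was met by 4 higher and 0 lower CPK/CDPK genes and by 3 higher and 1 lower CIPK genes, against 1405 higher and 308 lower genes on the whole array. Lower CPK/CDPK genes numbered 1 with quantile normalization, and lower CIPK genes 1 with quantile normalization and 1 with median centring. Over all 17905 genes the lower ones numbered 238 and 110 with these 2 normalizations. Higher CPK/CDPK genes numbered 0 of 5 with membership by symbol (beside 3.81% of all genes), which left no CIPK gene and so no CIPK value. Higher CIPK genes numbered 0 of 20 without probe sets that may bind several transcripts, beside 618 of 16119 genes. That choice removes the values of CIPK14 and CIPK16.

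With 1 array left out at a time, and the single array that remained in its group assumed to vary like the others, the higher CPK/CDPK genes numbered 1 to 5, the lower ones 0, and those at an adjusted p under 0.05 0 to 1 (CPK4, without −N replicate 2), with a median log2 fold change of −0.0064 to 0.39. For CIPK genes these were 0 to 4 higher, 0 to 2 lower, 0 to 1 at an adjusted p under 0.05 (CIPK31, without −N replicate 1) and a median of −0.21 to 0.11. Over all genes there were 197 to 2166 higher, 15 to 1045 lower, 0 to 604 at an adjusted p under 0.05, 196 to 618 at least 2-fold higher and a median of −0.13 to 0.20. The counts of higher, lower and at least 2-fold higher genes in this paragraph are all of genes with an unadjusted p under 0.05. On the whole array, quantile normalization gave 238 lower genes, and median centring 1024 higher, 110 lower and 1 at an adjusted p under 0.05. Student's t-test, which leaves the folds as they are, gave 260 lower, 105 at least 2-fold higher and 0 at an adjusted p under 0.05. The cause of these shifts was not tested. Of the 5 members past the unadjusted threshold, only CPK4 lost it with Student's t-test (p 0.0916), and the 2-fold call of CPK4 was lost without +Glu replicate 2 (0.77) and without −N replicate 1 (0.83). CIPK31, CIPK6 and CPK24 met the unadjusted threshold with median centring and with the block. CIPK31, CIPK6 and CPK17 met it with quantile normalization, and CIPK6 also with Student's t-test (p 0.0174) and with the offset of 16 (p 0.0420). CPK23 met it with Student's t-test (p 0.0289) and with no other alternative. No named member past the threshold changed sign under any alternative. Without detection calls it is not known whether dim members were above background.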
